A study of Mus musculus with 9 samples.

Results

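The renin-angiotensin system genes examined here are Agt, Ace, Agtr1a, Agtr2, Ren1, Enpep, Mme, Atp6ap2 and Mas1, read in podocytes sorted from diabetic and normal mice. Members were the probe sets whose platform gene symbol is exactly 1 of these 9 names. The search found 12 probe sets of 8 genes among 45037 probe sets of 18193 genes, and Ren1, the gene of renin, was not analysed here. The diabetic group held 5 mice of genotype OVE-GFP, in which a transgene that marks podocytes with eGFP was crossed into the OVE26 line. The normal group held 4 mice labelled wild type, and both groups had the FVB background and an age of 3 to 4 months. OVE26 is a transgenic line with early-onset, insulin-deficient diabetes. Glomeruli were collected after perfusion of the kidney with magnetic beads and collagenase digestion, dissociated with trypsin, and sorted for fluorescent podocytes. RNA of each sort was amplified, biotin-labelled and read on 1 array. The labels name neither the promoter that drives eGFP nor whether the mice labelled wild type carried it. Values are log2 of the deposited intensity, and differences are OVE26 minus FVB on that scale.

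Angiotensinogen, the product of Agt, is cut by renin to angiotensin I, which angiotensin-converting enzyme, the product of Ace, trims to angiotensin II. Angiotensin II acts through the type 1 receptor (Agtr1a) and the type 2 receptor (Agtr2), while aminopeptidase A (Enpep) and neprilysin (Mme) break angiotensins down, and neprilysin can form angiotensin 1-7, the ligand ascribed to the Mas receptor (Mas1). Podocytes are known to carry aminopeptidase A and neprilysin on their surface, and blockade of the type 1 receptor or of the converting enzyme is standard treatment of diabetic kidney disease. Mesangial cells also carry the type 1 receptor, and the brush border of the proximal tubule carries aminopeptidase A, neprilysin and the converting enzyme.

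The arrays were close to each other as a whole. Array medians lay between 5.07 and 5.15, and Pearson's r between pairs of arrays, over probe sets that do not vary independently, ranged from 0.960 to 0.989. The podocyte genes Podxl and Synpo were bright on every array, as were most of the 22 podocyte markers measured. Array means of those 22 ran from 10.62 to 11.11 in OVE26 and from 10.95 to 11.16 in FVB, and 0 of them passed the test in either direction by limma. Of the 22, 19 differences were below 0 and 3 above, the median was -0.21, and groups did not overlap in 5, beside 6.26% of all genes. RNA of other kidney cells was present as well, and OVE26 2 stood apart in its proximal tubule markers (mean 6.35, where the next OVE26 array had 8.34). Of 12 parietal epithelial markers 3 rose by limma, Krt8, Krt18 and Krt19, beside 0.473% of all genes that were higher. Among the 12, 11 differences were above 0, the median was 1.04, and array means were 6.80 to 7.46 in OVE26 against 5.76 to 6.61 in FVB. Xist was high and the Y-linked genes were low on OVE26 2, OVE26 3, OVE26 5 and FVB 2, and the reverse held on the other 5 arrays, a split that did not fall evenly on the groups. The labels do not give the sex of the mice. In such bulk sorts, fewer cells of a type and less RNA per cell cannot be told apart.

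Enpep was the 1 member of 8 whose groups did not overlap, beside 6.26% of all genes, and its level was slightly lower in diabetic mice. Agtr1a spread widely among diabetic mice, and Agtr2 and Mas1 gave no signal above the low end of the arrays. No member passed the test: 0 of 8 genes were higher and 0 lower at a limma adjusted p under 0.05, where 0.473% of all 18193 genes were higher and 0.132% lower, or 0.605% in either direction, so a count of 0 among 8 is near the background. The adjusted p of the 8 genes ran from 0.304 for Enpep to 0.878 for Atp6ap2 by limma. At an unadjusted p under 0.05 limma found 2 of the 8, Agt and Enpep, beside 15.1% of all genes. Of the 12 probe sets taken singly 0 were higher and 0 lower by limma, where 0.195% of all probe sets were higher and 0.0755% lower, or 0.271% in either direction. The median difference of the 8 genes was -0.039, and that of all genes was 0.013. For Ace, Enpep, Mme and Atp6ap2 a change of 2-fold lay outside the 95% confidence interval of the brightest probe set, whereas for Agtr1a a fall of that size lay within it.

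**Figure D1:**
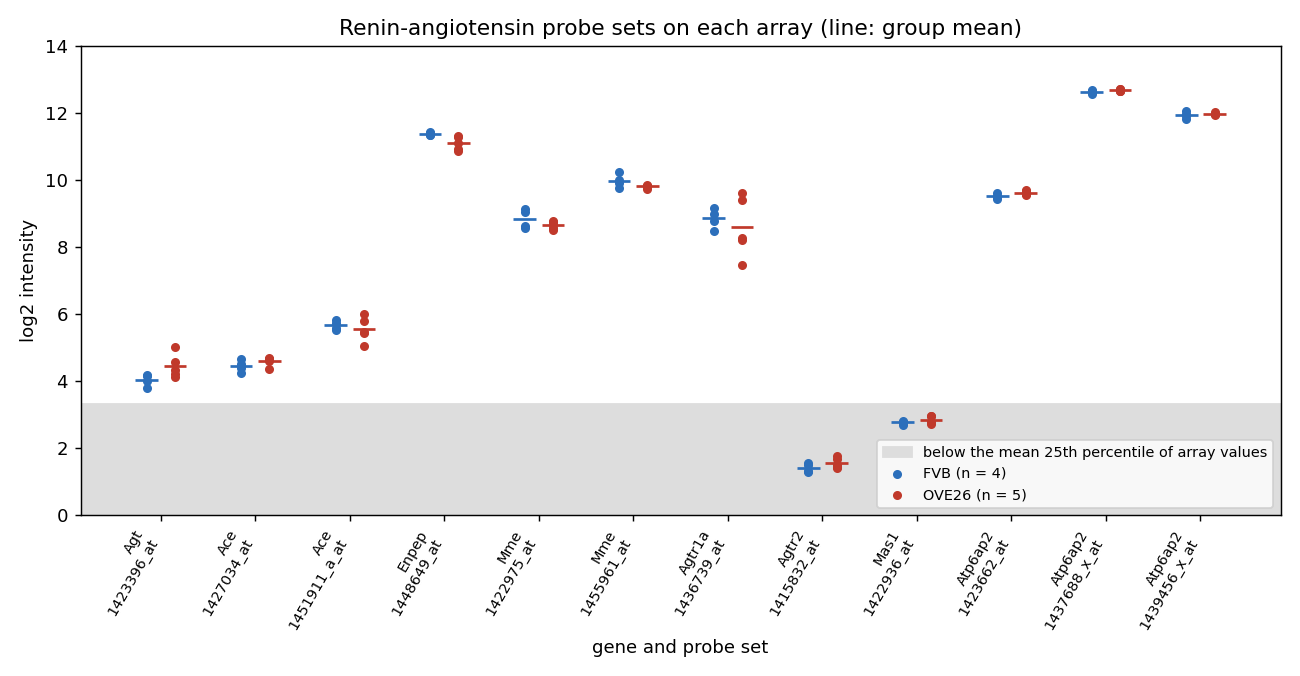
Log2 intensity (vertical axis) of each of the 12 probe sets (horizontal axis) on each array, FVB in blue and OVE26 in red, with a line at each group mean; the grey band lies below the mean 25th percentile of array values (3.31). Agtr2 and Mas1 lie inside the band, Agtr1a is spread from 7.45 to 9.61 among the OVE26 arrays, and only Enpep has groups that do not overlap.

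Agt, the gene of the only known precursor of angiotensins, gave a low signal. It read 4.13, 4.33, 4.22, 5.02 and 4.56 on OVE26 arrays 1 to 5, and 3.99, 4.15, 4.20 and 3.78 on FVB arrays 1 to 4. The groups overlapped, since OVE26 1 lay below FVB 2 and FVB 3, and OVE26 4 was the highest array. On 7 of the 9 arrays the probe set was below the 40th percentile of the array's values (4.36 to 4.42), at the low end of the scale. The difference was 0.42 (SE 0.19, 95% confidence interval 0.01 to 0.83, limma, adjusted p = 0.324), and it was 0.28 without OVE26 4 and 0.23 with 16 added to each intensity before log2 (limma, adjusted p = 0.438 and 0.393 over all probe sets).

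Ace, the gene of the converting enzyme, has 2 probe sets, and they pointed opposite ways. The brighter, 1451911_a_at, read 5.42, 5.04, 5.46, 5.78 and 6.01 on OVE26 arrays 1 to 5, against 5.83, 5.52, 5.59 and 5.73 on FVB arrays 1 to 4. The OVE26 arrays lay on either side of the FVB range, with OVE26 2 lowest and OVE26 5 highest. Its difference was -0.12 (SE 0.18, 95% confidence interval -0.53 to 0.29, limma, adjusted p = 0.83), and without OVE26 2 it was 0.0053. The other, 1427034_at, ran from 4.35 to 4.68 in OVE26 and from 4.23 to 4.66 in FVB, with a difference of 0.14 (limma, adjusted p = 0.672 over all probe sets). Across the 9 arrays the 2 probe sets tracked each other weakly (Pearson's r 0.28, Spearman's rho 0.11). Ace is an endothelial and brush border gene, and means of the 20 glomerular endothelial markers ran from 7.58 to 8.30 in OVE26 and from 7.48 to 8.37 in FVB. Means of the 18 proximal tubule markers ran from 6.35 on OVE26 2 to 8.90 on OVE26 5, and from 8.21 to 8.90 in FVB. OVE26 2 was the lowest OVE26 array at both Ace probe sets, and OVE26 5 the next lowest at 1427034_at. With the proximal score as a covariate 1451911_a_at differed by -0.049 and 1427034_at by 0.18 (limma, adjusted p = 0.919 and 0.509). The part of these cells was not tested.

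Enpep, which encodes the aminopeptidase that removes the first residue of angiotensin II, was the member whose groups separated. It read 11.31, 11.29, 11.11, 10.94 and 10.86 on OVE26 arrays 1 to 5, and 11.44, 11.33, 11.35 and 11.40 on FVB arrays 1 to 4. Every OVE26 array was below every FVB array, though OVE26 1 and OVE26 2 were close to FVB 2 and FVB 3. It was the 1 member of 8 with separate groups, as were 2.62% of all genes in this direction, 3.64% in the other and 6.26% in either. The means were 11.10 ± 0.20 (SD, n = 5) and 11.38 ± 0.05 (SD, n = 4). The level in OVE26 was 0.823 times that in FVB (95% confidence interval 0.685 to 0.989), a difference of -0.28 (SE 0.12) that did not pass by limma (adjusted p = 0.304). With 1 array left out the difference ranged from -0.33 to -0.22. Its sign could not turn in these fits, because the groups did not overlap.

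Enpep was lowest on the 3 arrays where podocyte markers were lowest. The mean of the 22 podocyte markers was 11.04, 11.11, 10.70, 10.62 and 10.82 on OVE26 arrays 1 to 5, and 11.05, 10.95, 11.16 and 11.02 on FVB arrays 1 to 4. OVE26 3, OVE26 4 and OVE26 5 were the 3 lowest arrays for Enpep and for these markers. By this mean OVE26 2 did not follow, at 11.11 with Enpep below every FVB array. Single genes weighed on these means, however. Ptgds read 10.07 on OVE26 2 and at most 6.35 on the other arrays. It raised the mean of OVE26 2, which is therefore no clear exception. Tcf21 read 8.06 on OVE26 4 and at least 10.05 on the others. The summed intensity of the 22 markers ran from 56957 to 69709 in OVE26 and from 65901 to 74160 in FVB, 19 of the 22 differed in the same direction as Enpep with a median of -0.21, none was below the 25th percentile on all arrays, and their part in the Enpep difference was not tested. For the 18 proximal tubule markers OVE26 2 was the lowest array, and its Enpep level was 11.29. Their summed intensity ran from 2500 to 13716 in OVE26 and from 8947 to 17088 in FVB, and 0 of the 18 passed by limma. With their score as a covariate the Enpep difference was -0.31 (limma, adjusted p = 0.296 over all probe sets). The 20 macrophage markers had their highest array means on OVE26 3, OVE26 4 and OVE26 5, at 6.03, 5.70 and 5.59. With their score as a covariate the Enpep difference was -0.095 (limma, adjusted p = 0.871). That score was above every FVB array on each OVE26 array but OVE26 2, so such a fit hardly separates group from score.

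Mme, the gene of neprilysin, which degrades natriuretic peptides as well as angiotensins, was slightly lower in OVE26 without passing the test. Its brighter probe set, 1455961_at, read 9.82, 9.73, 9.81, 9.85 and 9.82 on OVE26 arrays 1 to 5, and 9.9999, 9.76, 10.24 and 9.92 on FVB arrays 1 to 4. The groups overlapped through FVB 2 alone, and FVB 3 was the highest array. The difference was -0.17 (SE 0.11, 95% confidence interval -0.42 to 0.07, limma, adjusted p = 0.509). The other probe set, 1422975_at, gave -0.19 (limma, adjusted p = 0.610 over all probe sets), with 8.51 to 8.78 in OVE26 and 8.57 to 9.13 in FVB. The OVE26 arrays were unusually alike at the brighter probe set, with an SD of 0.05 that only 0.733% of the 10916 genes at or above the 40th percentile of gene means undercut, against an SD of 0.20 in FVB, near the median gene there.

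Agtr1a, the main receptor of angiotensin II in rodents, was well measured and varied most. It read 8.21, 7.45, 9.61, 9.39 and 8.27 on OVE26 arrays 1 to 5, and 8.79, 9.17, 8.49 and 8.98 on FVB arrays 1 to 4. OVE26 3 and OVE26 4 were above every FVB array and OVE26 1, OVE26 2 and OVE26 5 below every one, so the diabetic arrays fell on either side of the normal ones. The means were 8.59 ± 0.90 (SD, n = 5) and 8.86 ± 0.29 (SD, n = 4). The difference was -0.27 (SE 0.41, 95% confidence interval -1.18 to 0.63, limma, adjusted p = 0.824), which leaves OVE26 levels from 0.443 to 1.55 times those of FVB inside the interval. Without OVE26 2 the difference was 0.013, and with the macrophage marker score as a covariate it was -1.75 (limma, adjusted p = 0.132). That score was above every FVB array on each OVE26 array but OVE26 2, so such a fit hardly separates group from score. Of the genes at or above the 40th percentile, 97.0% had a smaller SD among OVE26 arrays than Agtr1a, and 72.6% had a smaller one among FVB arrays.

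The arrays with more Agtr1a tended to have more signal of mesangial and smooth muscle markers, with exceptions. The 2 with the most Agtr1a had the lowest podocyte marker means. The mean of 18 markers of mesangial cells, renin lineage and smooth muscle was 7.18, 7.21, 7.93, 7.43 and 7.52 on OVE26 arrays 1 to 5, and 7.40, 7.59, 7.18 and 7.49 on FVB arrays 1 to 4. OVE26 3 was highest for these markers and for Agtr1a, while OVE26 1, OVE26 2 and FVB 3 were low for the markers and in the lower part of the Agtr1a range. OVE26 5 did not follow, with a marker mean of 7.52 and Agtr1a at 8.27. Nor did OVE26 4, with Agtr1a at 9.39 and a marker mean of 7.43, below those of OVE26 5, FVB 2 and FVB 4. In the score of the 17 of these markers on no pathway list, which leaves out Rgs5, OVE26 4 stood at -0.15. None of the 18 was below the 25th percentile on all arrays, 0 of 18 passed by limma, and their summed intensity ran from 7119 to 10496 in OVE26 and from 7533 to 12109 in FVB. On podocyte markers the 2 arrays with the highest Agtr1a, OVE26 3 and OVE26 4, had the lowest means, 10.70 and 10.62, and on macrophage markers the highest, 6.03 and 5.70. OVE26 5 did not follow here either. Its podocyte mean was low (10.82) and its macrophage mean high (5.59), with Agtr1a at 8.27. FVB 2 had Agtr1a at 9.17 and a macrophage mean of 4.92. The part of these cell types in the spread of Agtr1a was not tested. With the mesangial marker score as a covariate the Agtr1a difference was -0.17 (limma, adjusted p = 0.871 over all probe sets).

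**Figure D2:**
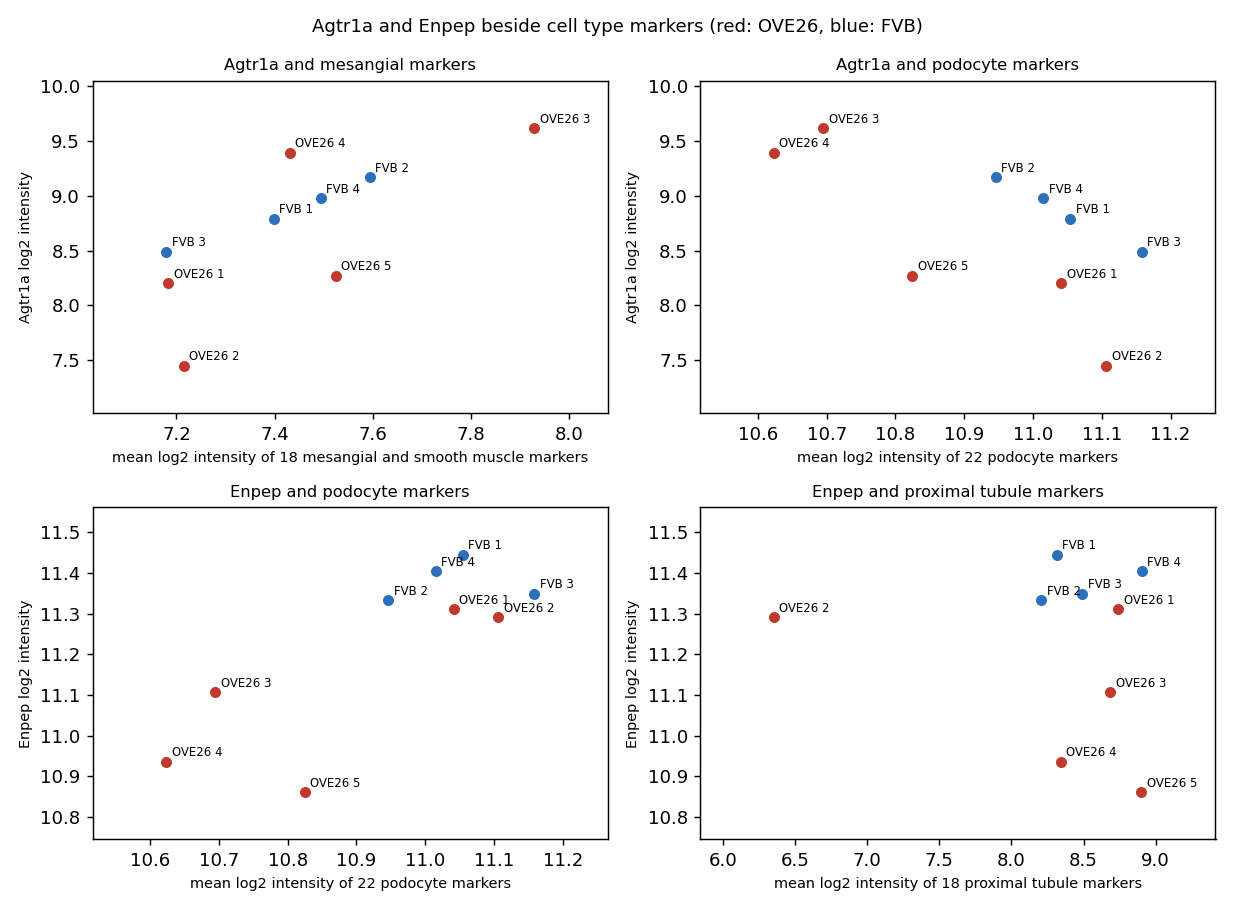
Each point is 1 array (red OVE26, blue FVB); the vertical axes give log2 intensity of Agtr1a (upper panels) or Enpep (lower panels), and the horizontal axes give the mean log2 intensity of a marker list. Agtr1a is highest on OVE26 3 (9.61), the array with the highest mesangial marker mean (7.93), and Enpep is lowest on the 3 OVE26 arrays with the lowest podocyte marker means.

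Agtr2 and Mas1, the receptors usually set against the type 1 receptor, were not told from background. Agtr2 ran from 1.41 to 1.76 in OVE26 and from 1.29 to 1.55 in FVB, and Mas1 from 2.72 to 2.95 and from 2.69 to 2.82. Both were below the 25th percentile (3.26 to 3.34) on all 9 arrays, so no fold is given for them. The limma adjusted p was 0.630 for Agtr2 and 0.805 for Mas1.

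Atp6ap2, known as the (pro)renin receptor and as an accessory subunit of the vacuolar proton pump, was steady. Its brightest probe set, 1437688_x_at, read 12.65, 12.71, 12.65, 12.64 and 12.71 on OVE26 arrays 1 to 5, and 12.65, 12.69, 12.55 and 12.63 on FVB arrays 1 to 4. The groups overlapped, with OVE26 2 and OVE26 5 above every FVB array and FVB 3 and FVB 4 below every OVE26 array. The difference was 0.042 (SE 0.084), an OVE26 level of 1.03 times that of FVB (95% confidence interval 0.904 to 1.17, limma, adjusted p = 0.878). The SD of 0.04 among OVE26 arrays was undercut by 0.302% of the genes at or above the 40th percentile. The probe sets 1439456_x_at and 1423662_at gave 0.041 and 0.11 (limma, adjusted p = 0.894 and 0.679 over all probe sets). The suffix of 1437688_x_at and 1439456_x_at marks probes that may match other transcripts, and 1423662_at carries no such mark.

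**Figure D3:**
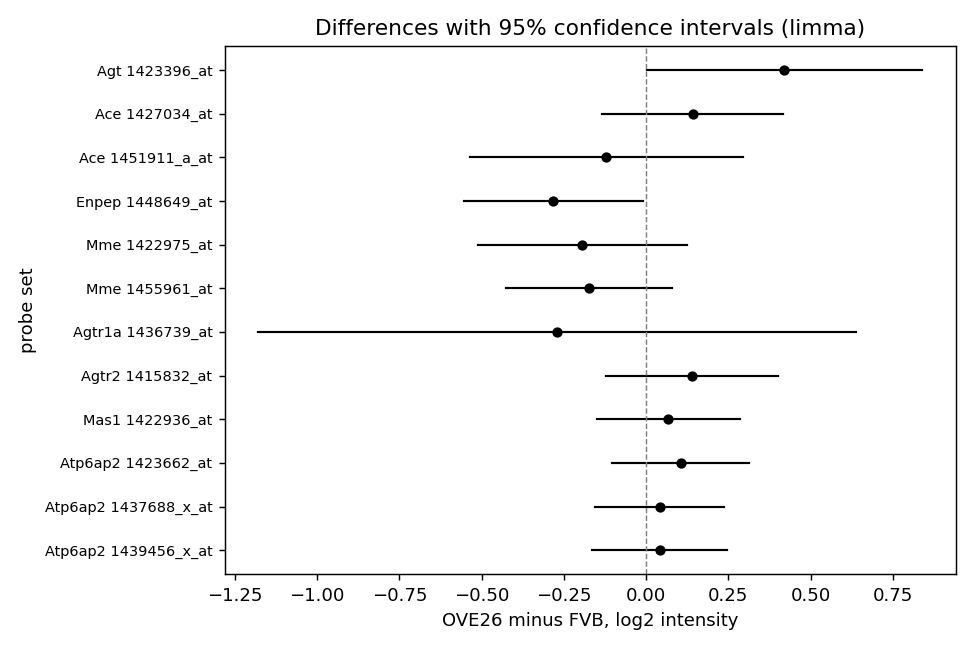
Difference OVE26 minus FVB in log2 intensity (horizontal axis) for each of the 12 probe sets (vertical axis), with bars for the 95% confidence interval from limma over all probe sets. The intervals are narrow around 0 for the Atp6ap2 probe sets and widest for Agtr1a, from -1.18 to 0.64.

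For each of the 5 member genes at or above the 40th percentile of gene means, the genes with the most similar profile over the 9 arrays were picked from the other 10915 such genes by Pearson's r. With so many genes compared over so few arrays, high values arise easily, so these are descriptions. Enpep ran closest to Zfp266 (r 0.96), Vegfa (r 0.96, rho 0.98) and Ndfip1 (r 0.96). Vegfa, the vascular growth factor made by podocytes, is on the podocyte list too. Agtr1a ran closest to Rap1a (r 0.97), Gm13889 (r 0.94) and Sema4c (r 0.94), and Mme to Sptlc2 (r 0.94), Dstyk (r 0.93) and Smad2 (r 0.92). Ace ran closest to Dnajc12 (r 0.93), Pibf1 (r 0.92) and Vps26a (r 0.91), and Atp6ap2 to Sfrp1 (r 0.94), Cfap54 (r 0.93) and Patz1 (r 0.93).

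Other genes of the pathway were read from 4 lists. Among 21 measured genes of other angiotensin and kinin enzymes and receptors 0 passed by limma, with 16 differences above 0 and 5 below and a median of 0.17. Klk1, tissue kallikrein, which releases kinins from the kininogen encoded by Kng1, averaged 11.60 ± 0.49 (SD, n = 5) among diabetic mice against 9.77 ± 0.91 (SD, n = 4) among normal ones (limma, adjusted p = 0.0794), and 3 of its 4 probe sets pointed the same way. Kng1 averaged 9.97 ± 0.36 (SD, n = 5) in OVE26, and its FVB mean was 8.22 ± 1.12 (SD, n = 4), a difference of 1.76 (limma, adjusted p = 0.108). Bdkrb2, a kinin receptor read at low signal, differed by 1.12 (limma, adjusted p = 0.103). FVB 2 was the highest FVB array for all 3 of these genes, and without it Klk1 differed by 2.24 (limma, adjusted p = 0.0109), Kng1 by 2.26 (limma, adjusted p = 0.00736) and Bdkrb2 by 1.37 (limma, adjusted p = 0.0222). Each passed in that fit alone of the 9 with 1 array left out. FVB 2 was the 1 FVB array with high Xist, and had the highest FVB mean of distal nephron markers (7.04). Over all genes 285 were higher and 82 lower without it, beside 86 and 24 with all arrays. Kallikrein genes form a family of close copies, so Klk1 signal may include relatives. The lysosomal proteases Ctsd, Ctsb and Ctsa, of which cathepsin D can act on angiotensinogen, differed by 0.81 (limma, adjusted p = 0.0570), 0.38 (limma, adjusted p = 0.192) and 0.47 (limma, adjusted p = 0.285).

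Aldosterone, whose release angiotensin II drives, acts in the distal nephron. Of 14 measured genes of its signalling 0 passed by limma, 13 differences were above 0 and 1 below, that of Nr3c2, the mineralocorticoid receptor itself (-0.096), and the median was 0.80. Scnn1a, Scnn1b and Scnn1g, the subunits of the epithelial sodium channel, differed by 0.95, 1.38 and 0.98 (limma, adjusted p = 0.103, 0.129 and 0.189), and Scnn1a and Scnn1g were dim. Hsd11b2, the enzyme that shields the mineralocorticoid receptor from glucocorticoid, differed by 2.27 (limma, adjusted p = 0.0516), and by 1.94 without OVE26 2 (limma, adjusted p = 0.0411) or 2.37 without FVB 2 (limma, adjusted p = 0.0465). Fkbp5, a steroid receptor co-chaperone that glucocorticoid also induces, differed by 1.92 (limma, adjusted p = 0.120), and Nedd4l, a ubiquitin ligase of the channel, by 0.64 (limma, adjusted p = 0.194), a sign that 2 of its 6 probe sets shared and that turned with their mean (-0.035). Scnn1a passed at 1.17 (limma, adjusted p = 0.0204) and Fkbp5 at 2.35 (limma, adjusted p = 0.0393) without FVB 2, the 1 FVB array with high Xist. Neither passed when any other array was left out.

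Distal nephron cells are known to make several of these products, among them tissue kallikrein and the sodium channel subunits, and markers of those segments had higher array means in the OVE26 sorts. Of 19 measured markers of the distal nephron segments, 3 rose by limma (Fxyd4, Slc26a4 and Atp6v0d2), beside 0.473% of all genes that were higher. None of the 19 was below the 25th percentile on all arrays, and the array means were 7.35 to 8.67 in OVE26 against 5.77 to 7.04 in FVB. Hsd11b2, Scnn1g, Atp6v0d2 and Atp6v1b1 are on this list as well as on a pathway list. The summed intensity of the 19 was 6255 to 13556 in OVE26 and 2476 to 9415 in FVB. With the score of the 15 of these markers that are on no pathway list as a covariate, Klk1 differed by 0.50, Kng1 by 0.44, Hsd11b2 by 1.04, Scnn1a by 0.25, Scnn1b by 0.63 and Scnn1g by 0.34 (limma, adjusted p from 0.528 to 0.840). Fkbp5 under the same covariate differed by 1.76, Bdkrb2 by 0.86 and Nedd4l by 0.50, and the proteases Ctsd by 0.74, Ctsb by 0.46 and Ctsa by 0.55 (limma, adjusted p from 0.445 to 0.684). That score ran from 0.079 to 1.43 in OVE26 and from -1.29 to 0.11 in FVB, so such a fit hardly separates group from score. With it 0 of all 18193 genes were higher and 0 lower, so missing the threshold there says nothing about any 1 gene. The part of distal cells in these differences was not tested.

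Genes that act after the type 1 receptor pointed both ways. Of 27 measured, 0 passed by limma, 15 differences were above 0 and 12 below, and the median was 0.048. In 7 of them the groups did not overlap, beside 6.26% of all genes. Prkca and Prkcd, both protein kinase C genes, stood on opposite sides, at -0.58 (limma, adjusted p = 0.102) and 0.64 (limma, adjusted p = 0.0558). Grk5 and Arrb1, a receptor kinase and an arrestin that switch off such receptors, were lower on every OVE26 array, by -0.59 and -0.41 (limma, adjusted p = 0.108 for each). Arrb2, another arrestin of the list, differed by -0.13 (limma, adjusted p = 0.810). Edn1, the gene of endothelin 1, was higher on every OVE26 array, by 0.67 (limma, adjusted p = 0.120), and Nox4, an oxidase that makes hydrogen peroxide, differed by 1.33 with overlapping groups (limma, adjusted p = 0.208). Prkcd, which macrophages also express, passed without FVB 2 at 0.69 (limma, adjusted p = 0.0436). It did not pass when any other array was left out. The mean of 20 macrophage markers was 4.90 to 6.03 in OVE26 and 4.61 to 4.92 in FVB, 0 of 20 passed by limma, 1 was below the 25th percentile on all arrays and the summed intensity was 1000.1 to 3329 against 1072 to 1285. The macrophage score was above every FVB array on each OVE26 array but OVE26 2, so a fit with it hardly separates group from score. With it 0 of all 18193 genes were higher and 2 lower. Under this covariate Nox4 differed by 0.0052 (limma, adjusted p = 0.998). Among genes of the lists above Fkbp5 differed by 0.81 and Ctsb by 0.17 (limma, adjusted p = 0.665 and 0.743). Under the same covariate Prkcd differed by 0.65 and Edn1 by 0.69, Prkca by -0.80, Grk5 by -0.98 and Arrb1 by -0.36 (limma, adjusted p from 0.139 to 0.361).

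The vacuolar proton pump, to which Atp6ap2 belongs, held the 1 pathway gene that passed. Of 20 subunits measured 1 rose and 19 did not pass by limma, beside 0.473% of all genes that were higher. Differences were above 0 in 16 and below in 4, the median was 0.21, and groups did not overlap in 8, beside 6.26% of all genes. Atp6v0d2, an isoform of intercalated cells and osteoclasts, rose by 2.88 (SE 0.46, limma, adjusted p = 0.0290), from 5.66, 5.94, 4.71 and 4.98 on FVB arrays 1 to 4 to 8.23, 8.46, 8.47, 9.17 and 6.66 on OVE26 arrays 1 to 5. It missed the threshold when any array but OVE26 2, OVE26 5 or FVB 2 was left out. With the distal marker score as a covariate it was 2.34 (limma, adjusted p = 0.402), in a fit where 0 of all 18193 genes passed. Atp6v0a1, the widely expressed isoform of the large membrane subunit, stood the other way at -0.62, lower on every OVE26 array and in all 4 of its probe sets (limma, adjusted p = 0.0570). The subunits Atp6v1f, Atp6v1a and Atp6v1e1 differed by 0.57, 0.46 and 0.37 (limma, adjusted p = 0.113, 0.120 and 0.141), and Atp6v1c2 was dim. Atp6ap2 itself, at 0.042, lay near 0 beside them.

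**Figure D4:**
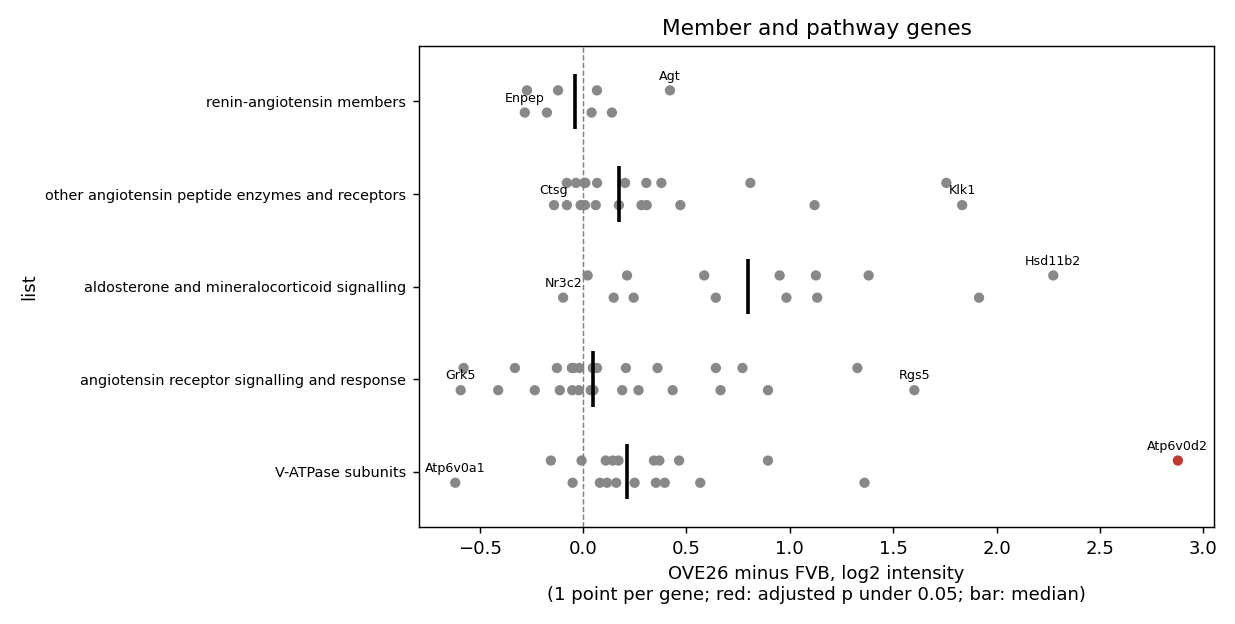
Difference OVE26 minus FVB in log2 intensity (horizontal axis) of each measured gene in the member set and in the 4 pathway lists (rows), 1 point per gene, red where the limma adjusted p is under 0.05, with a bar at each list's median. Member genes lie between -0.28 and 0.42, the aldosterone list has a median of 0.80, and Atp6v0d2 at 2.88 is the 1 red point.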

How the data were processed

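Arrays of 5 OVE26 and 4 FVB podocyte sorts were analysed. The submitters' processing notes name RMA and Partek, with no version or setting. The authors deposited 1 intensity per probe set, whose range is that of a linear scale, so log2 values were computed for the tests. The number of arrays limits the precision. The 64 control probe sets were left out. Of the others, 34945 have 1 gene symbol in the platform annotation, 932 several and 9160 none listed. Each gene was represented by its brightest probe set, which gave 18193 genes, with no filter on dim genes. A moderated linear model with a term for group alone (limma 3.58.1, lmFit then eBayes, under R 4.3.3, 2-sided) was fitted to these genes, and separately to all 45037 probe sets, with Benjamini-Hochberg adjustment over each table and a threshold of 0.05. Where a gene has several probe sets, p-values of those other than the brightest are adjusted over all probe sets. The script was tested on simulated data.

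Of 9 members 8 were measured. The members, the lists and the alternatives were chosen with earlier results of these data known. Named genes were all members, up to 6 genes of each pathway list by smallest p, and the 3 genes most like each member. Scores are mean centred log2 values of markers on no pathway list. The labels name separate mice and give no batch. Alternatives were a filter on dim genes, another value per gene, normalization, variance models, an offset of 16, thresholds, covariates, a replicate block and leaving out each array. The mouse numbers were not used to pair the arrays in the main fit.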

Additional observations from a re-analysis of the deposited data

Results flagged for a closer look

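In 96 groups of values looked at (12 probe sets, 24 pathway genes and 12 list means, in each group of mice), 3 held an array far from the rest by Dixon's criterion, which chance alone meets in about 1 of 20 groups. Ace 1427034_at read 4.35 on OVE26 2, below the next OVE26 array at 4.60. Arrb1 read 11.14 on FVB 3, above the next FVB array at 10.92. The mean of the proximal tubule markers was 6.35 on OVE26 2, below the next OVE26 array at 8.34.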

How the results depend on the processing

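The count of member genes and of member probe sets past the threshold was 0 in both directions under all alternatives run. Directions of members turned in these cases: Ace 1427034_at with the macrophage score as a covariate (-0.033), Ace 1451911_a_at with the distal score (0.24), Agtr1a with the distal score (0.028), Mme 1422975_at with the macrophage score (0.075) and 1455961_at with the distal score (0.060), Atp6ap2 1437688_x_at with quantile normalization (-0.0037) or the distal score (-0.035) and 1439456_x_at with the distal score (-0.073). When arrays were left out in turn, Ace 1451911_a_at ranged from -0.24 to 0.0053 and Agtr1a from -0.53 to 0.013, with OVE26 2 the array whose absence gave the upper value of each. Nedd4l was at -0.035 with the mean of its probe sets. Agtr2, Mas1 and Agt could not be fitted under the filter on dim probe sets.

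The count of pathway genes higher in OVE26, 1 of 82, was 4 with the filter on dim genes, 2 with the mean of probe sets, 3 with an intensity trend, 7 with array weights, 0 without moderation, 0 with the sex covariate, 2 with the proximal, 0 with the distal, 0 with the macrophage and 5 with the endothelial score, 2 with the offset, 6 at a threshold of 0.1 and 0 at 0.01. Without 1 array it ranged from 0 to 10, the latter without FVB 2. The count lower, 0, became 1 with the filter, the trend, array weights, the mesangial or endothelial score, the offset, or the threshold of 0.1, and stayed 0 without any 1 array. With the replicate block 0 pathway genes were higher, 0 lower and 0 members passed. Correlations of deviations between same-numbered arrays ran from -0.28 to 0.19. The same-numbered FVB array was the best match for mouse numbers 2 and 4 but not for 1 and 3. So few values cannot settle whether the numbers pair the arrays. Over all 18193 genes, 284 were higher and 112 lower with array weights, and 0 and 0 without moderation or with the distal score. The counts were 0 and 2 with the macrophage score, 19 and 0 with the block, and 285 and 82 without FVB 2. They were 204 and 52 with the endothelial score, 147 and 44 with the mesangial and 87 and 22 with the proximal. The trend gave 128 and 51, the mean of probe sets 109 and 35, the offset 90 and 43, and the sex covariate 33 and 8. The filter left 10916 genes, 128 of them higher and 38 lower. The main fit had 86 and 24, and the pathway counts are to be read beside these.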

Other observations

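Some member probe sets ran against each other over the 9 arrays. They were picked from all pairs of the 12 and are given here as descriptions. Enpep was lower where Agt was high (Pearson's r -0.83, Spearman's rho -0.88). Agt was below the 40th percentile on 7 of the 9 arrays. The 2 genes also differed between groups in opposite directions (0.42 for Agt, -0.28 for Enpep), which enters this r. The brighter Mme probe set ran against Atp6ap2 at 1439456_x_at (r -0.90, rho -0.85) and at 1437688_x_at (r -0.88, rho -0.83), over a range of Atp6ap2 that spans only 12.55 to 12.71 at the latter. Probe sets of 1 gene matched less closely than might be assumed: r was 0.69 with a rho of 0.38 for the 2 of Mme, and 0.49 to 0.84 among the 3 of Atp6ap2.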
